A study of Mus musculus with 52 samples.

Results

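Genes of cholesterol synthesis, uptake and export were followed in the mouse liver from before partial hepatectomy, the surgical removal of most of the liver, to 3 months after it. The list held 30 genes, taken by name, and each was read from 1 probe set, the brightest on average among those annotated to that gene alone. A total of 28 of the 30 had such a probe set, out of 18194 genes measured this way, and Acat2 and Soat2 were dropped. The samples are livers of C57Bl6/N mice, labelled male, aged 8 to 12 weeks per the design text and fed a standard diet, each read on its own array (52 in all). Untreated mice gave 5 arrays, the controls. Operated mice gave 47: 3 (1 hour), 4 (6 hours), 4 (12 hours), 11 (24 hours), 4 (48 hours), 4 (3 days), 4 (4 days), 4 (1 week), 2 (2 weeks), 4 (4 weeks) and 3 (3 months). No group carried a transgene or a drug, and no sham-operated group was analysed here, so anaesthesia, surgery and loss of tissue cannot be told apart. Time of day, food intake and age at sampling were not accounted for, and cannot be told apart from the operation either. Nothing in the labels says that each array is a different mouse, and p-values therefore measure only the spread between arrays, which may be technical.

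Cells make cholesterol from acetyl-CoA through mevalonate, isoprenoids, squalene and lanosterol. The genes of this route are transcribed under SREBP-2, encoded by Srebf2, which Scap carries from the endoplasmic reticulum to the Golgi for activation, and which the Insig proteins hold back when sterol is plentiful. The liver both makes cholesterol and clears it, into bile through Abcg5 and Abcg8 and into high-density lipoprotein through Abca1, while LXR receptors, which sense oxysterols, raise the exporters.

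Several arrays stood apart. Of the 52 arrays, 17 correlated less with the others of their own group than with the mean of another group. At 24 hours, replicates 9, 10 and 11 had an Xist signal of 9.12 to 9.48 on the log2 scale against 2.51 to 3.81 in the other 49 arrays, which goes against the label male. The profile of 4-week replicate 1 correlated at 0.941 with the mean of the 12-hour group and at -0.499 with the other 4-week arrays, and that of 1-week replicate 4 at 0.379 with the 12-hour group and at -0.282 with its own. Spiked hybridization controls averaged 10.85 ± 0.29 (SD, n = 5) in the control arrays and 9.73 to 10.38 in the means of the operated groups, and the 3' minus 5' difference of Gapdh, a measure of RNA quality, was 1.61 ± 0.57 in the control arrays and 0.65 to 1.10 in the operated groups. The 6 hepatocyte markers measured averaged 12.97 in the control arrays and 13.02 to 13.24 in the operated groups, all of them far above background. Single markers were called in both directions at some times. At 24 hours 2 were higher and 2 lower, where 18.9% and 12.8% of all genes were. In bulk tissue, fewer cells of a type and less RNA per cell cannot be told apart.

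All 28 genes differed from control at some time by limma's F test over the 11 times, where 64.6% of all genes did, and leaving out any 1 array left 26 to 28. Of 81 calls on genes with more than 1 probe set, another set was called the same way in 55 and the opposite way in 0; in the rest no other set was called. The probe sets of Fdft1, Hsd17b7 and Scarb1 carry the maker's suffix for probes that can pick up related sequences. That of Mvd carries the suffix for probes shared by several transcripts, which can belong to more than 1 gene. At 6 hours and at 12 hours 12 of the 28 were lower than control, led by Insig1, Mvd, Hmgcs1 and Fdft1 at 6 hours and by Insig1, Hmgcs1, Nsdhl and Dhcr7 at 12 hours, while Insig2 and Abca1 were higher at both. From 48 hours to 4 days part of the 18 synthesis enzymes were called higher than control, 8 at 48 hours, 11 at 3 days and 9 at 4 days. The median change of the 18 was 0.64, 0.88 and 0.78 on the log2 scale at these times, and -0.04, -0.02 and -0.00 over all genes; the lowest single changes were -0.32, -0.43 and -0.25. With the arrays' hybridization controls as a covariate, none of the 28 genes passed at 3 or 4 days. Values are log2 expression from the deposited table, changes are differences of log2 group means ± SE, and the threshold for a call is an adjusted p under 0.05, by limma with Benjamini-Hochberg adjustment over all 18194 genes.

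At 6 hours 16 of the 28 were called (57.1%), against 22% of all genes; 12 fell, where 10.5% of all genes fell, and 4 rose, where 11.4% did. At 12 hours 14 were called (50%), against 29.9% of all genes, 12 lower where 12% of all genes were and 2 higher where 17.9% were. Over both directions the later shares were near those of all genes. The calls numbered 7 of 28 at 24 hours (31.7% of all genes) and 9 at 48 hours (30.8%), then 12 at 3 days (39.4%) and 10 at 4 days (32.8%), and 10 at 1 week (36.7%). The later calls lay mostly on the side of rises. At 3 days 11 rose and 1 fell, where 21.7% of all genes rose and 17.7% fell, and at 48 hours 8 rose and 1 fell, where 17.4% rose and 13.4% fell. At 4 days 9 rose and 1 fell (18.8% and 14.1% of all genes), at 1 week 9 rose and 1 fell (21.8% and 14.9%), and at 24 hours 4 rose and 3 fell (18.9% and 12.8%). Without 7 arrays that stood apart (1-week replicate 4, 4-week replicate 1, control replicate 1 and 24-hour replicates 1, 9, 10 and 11) the counts were 18 (6 hours), 17 (12 hours), 9 (24 hours), 11 (48 hours), 14 (3 days), 14 (4 days) and 12 (1 week). No rule for the choice of these 7 is given here. The counts are not set beside the share of all genes called without the same arrays, so they show no change particular to the 28.

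**Figure D1:**
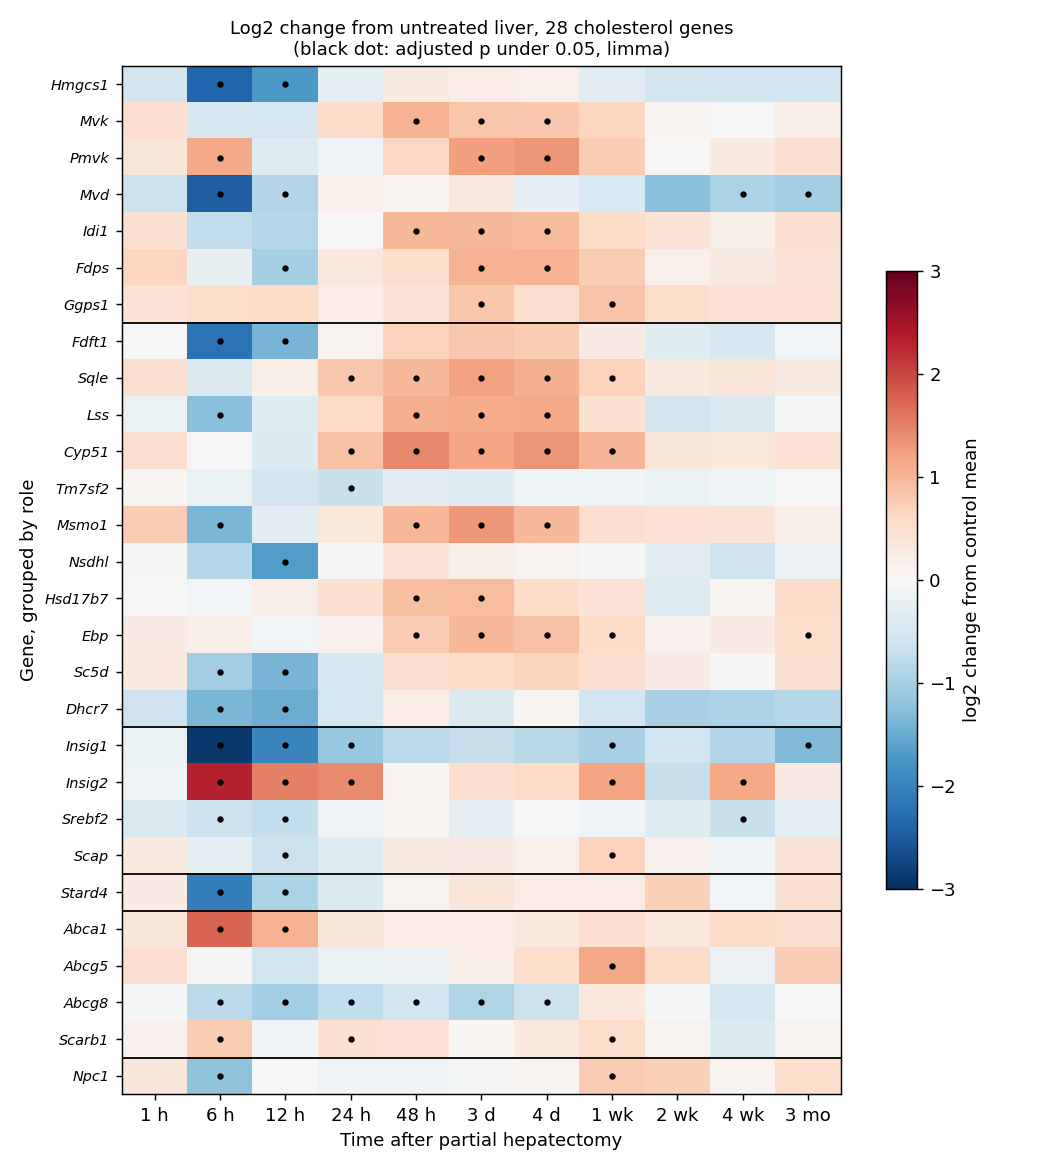
Log2 change from the control mean (colour, scale from -3 to 3) for the 28 genes (vertical axis, grouped by role with lines between groups) at the 11 times after partial hepatectomy (horizontal axis). Black dots mark an adjusted p under 0.05; the blue fields at 6 and 12 hours include Insig1, Hmgcs1 and Fdft1, and the red fields from 48 hours to 4 days include Cyp51, Sqle and Lss.

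Of the 7 genes of the mevalonate and isoprenoid steps, Hmgcs1 and Mvd fell at 6 hours and Pmvk rose. Hmgcs1 encodes the synthase that makes HMG-CoA, the substrate of the rate-limiting step. Its level was 12.97, 11.80, 12.66, 12.05 and 11.97 in the 5 control arrays and 10.34, 9.68, 9.95 and 9.63 in the 4 arrays at 6 hours. No array at 6 hours reached the lowest control, and the difference was -2.39 ± 0.34 (adjusted p = 7.5e-07), a level 5.24-fold lower. At 12 hours Hmgcs1 stood at 11.16, 10.51, 10.28 and 10.30, which is -1.73 ± 0.34 from control (adjusted p = 0.00011).

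Mvd, the decarboxylase that yields isopentenyl diphosphate, had 7.52, 6.54, 7.53, 6.95 and 6.80 in the control arrays and 4.78, 4.79, 4.39 and 4.42 at 6 hours. All 4 of the latter lie below 4.96, the level set here as the edge of background, which is 1 log2 unit above the median of all probe sets and was chosen after the values were seen. The fall of Mvd was therefore at least 4.30-fold, counted from the control mean to that edge, and the fitted change was -2.47 ± 0.33 (adjusted p = 2.1e-07). At 12 hours Mvd read 6.45, 6.31, 5.96 and 6.02, above the 6-hour arrays (adjusted p = 0.0015) and still lower than control (-0.88 ± 0.33, adjusted p = 0.039). The latter call ended without any of 5 arrays, 12-hour replicates 2, 3 and 4 and control replicates 1 and 3 (up to 0.107).

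Pmvk, the kinase 1 step before Mvd in the route, moved the other way at 6 hours, with 9.52, 8.28, 8.58 and 8.81 against 7.73, 7.64, 7.98, 7.65 and 7.26 in the control arrays. All 4 arrays were above every control, by 1.14 ± 0.35 in the means (adjusted p = 0.012; 0.0853 without 6-hour replicate 1). Pmvk then dropped by 1.54 ± 0.36 between 6 and 12 hours (adjusted p = 0.0033).

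Fdps, which makes farnesyl diphosphate, the branch point to sterols and prenylated proteins, was called at 12 hours only among the early times, at 9.17, 9.21, 8.44 and 8.84 against 9.18, 10.08, 10.16, 10.12 and 9.97 in the control arrays. Its change was -0.99 ± 0.32 (adjusted p = 0.016; 0.0742 without 12-hour replicate 3), and the highest 12-hour array overlaps the lowest control. Mvk, the mevalonate kinase, and Idi1, the isomerase that makes dimethylallyl diphosphate, had changes from control between -0.85 and -0.47 at both early times and did not pass the test against control. Ggps1, which makes geranylgeranyl diphosphate for protein prenylation, was 0.53 above control at 6 hours and 0.54 at 12 hours and did not pass.

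In the 11 steps from squalene to cholesterol, 5 genes fell at 6 hours, 4 at 12 hours and none rose. Fdft1, the squalene synthase and the committed step to sterols, had 11.18, 10.12, 10.92, 10.48 and 10.69 in the control arrays and 8.74, 8.17, 8.60 and 8.31 at 6 hours. The groups do not overlap, and the change was -2.22 ± 0.34 (adjusted p = 2.7e-06), 4.67-fold lower. At 12 hours the change of Fdft1 was -1.40 ± 0.34 (adjusted p = 0.0014).

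Msmo1, a sterol oxidase, fell by 1.37 ± 0.33 at 6 hours (adjusted p = 0.0016), from 10.20, 10.51, 10.73, 10.48 and 10.48 to 9.57, 9.01, 9.11 and 8.74. At 12 hours it read 10.72, 10.46, 9.80 and 9.60, in part within the control range. Lss, which closes squalene oxide into lanosterol, fell by 1.26 ± 0.35 at 6 hours (adjusted p = 0.0068), with 7.41, 7.11, 7.06 and 7.28 against 8.03 to 8.99 in the control arrays. Neither Msmo1 nor Lss passed at 12 hours.

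Nsdhl, an enzyme of C4 demethylation, was at its lowest at 12 hours rather than 6. Its level was 9.36 to 9.62 in the control arrays, then 8.75, 8.64, 8.55 and 8.63 at 6 hours (-0.85 ± 0.37, adjusted p = 0.0945) and 7.95, 8.12, 7.47 and 7.73 at 12 hours. The change at 12 hours was -1.68 ± 0.37 (adjusted p = 0.00039), and every array at either time was below every control.

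Sc5d and Dhcr7, which act at the end of the route, were low at both early times. Dhcr7, the reductase that makes cholesterol from 7-dehydrocholesterol, changed by -1.37 ± 0.41 at 6 hours (adjusted p = 0.011) and -1.48 ± 0.41 at 12 hours (adjusted p = 0.0046). Sc5d, the desaturase before it, changed by -1.03 ± 0.38 at 6 hours (adjusted p = 0.045), a call that ended without any 1 of the 9 arrays of this contrast (adjusted p up to 0.117), and by -1.38 ± 0.38 at 12 hours (adjusted p = 0.0044).

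Cyp51, the lanosterol demethylase, did not pass as lower than control at either early time. From 1 to 6 hours its change was -0.51 ± 0.27, which did not pass (adjusted p = 0.274). It read 9.10, 8.80, 8.94 and 8.83 at 6 hours, inside the control range of 8.58 to 9.23 (-0.02 ± 0.23, adjusted p = 0.972), and 8.68, 8.75, 8.17 and 8.47 at 12 hours (-0.42 ± 0.23, adjusted p = 0.178). Sqle, the squalene epoxidase and a rate-limiting enzyme of the route, read 8.98, 8.58, 8.49 and 8.35 at 6 hours against 8.78 to 9.24 (-0.44 ± 0.23, adjusted p = 0.18). The reductase Tm7sf2, Hsd17b7, a ketosteroid reductase, and Ebp, the sterol isomerase, did not pass at 6 or 12 hours either.

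**Figure D2:**
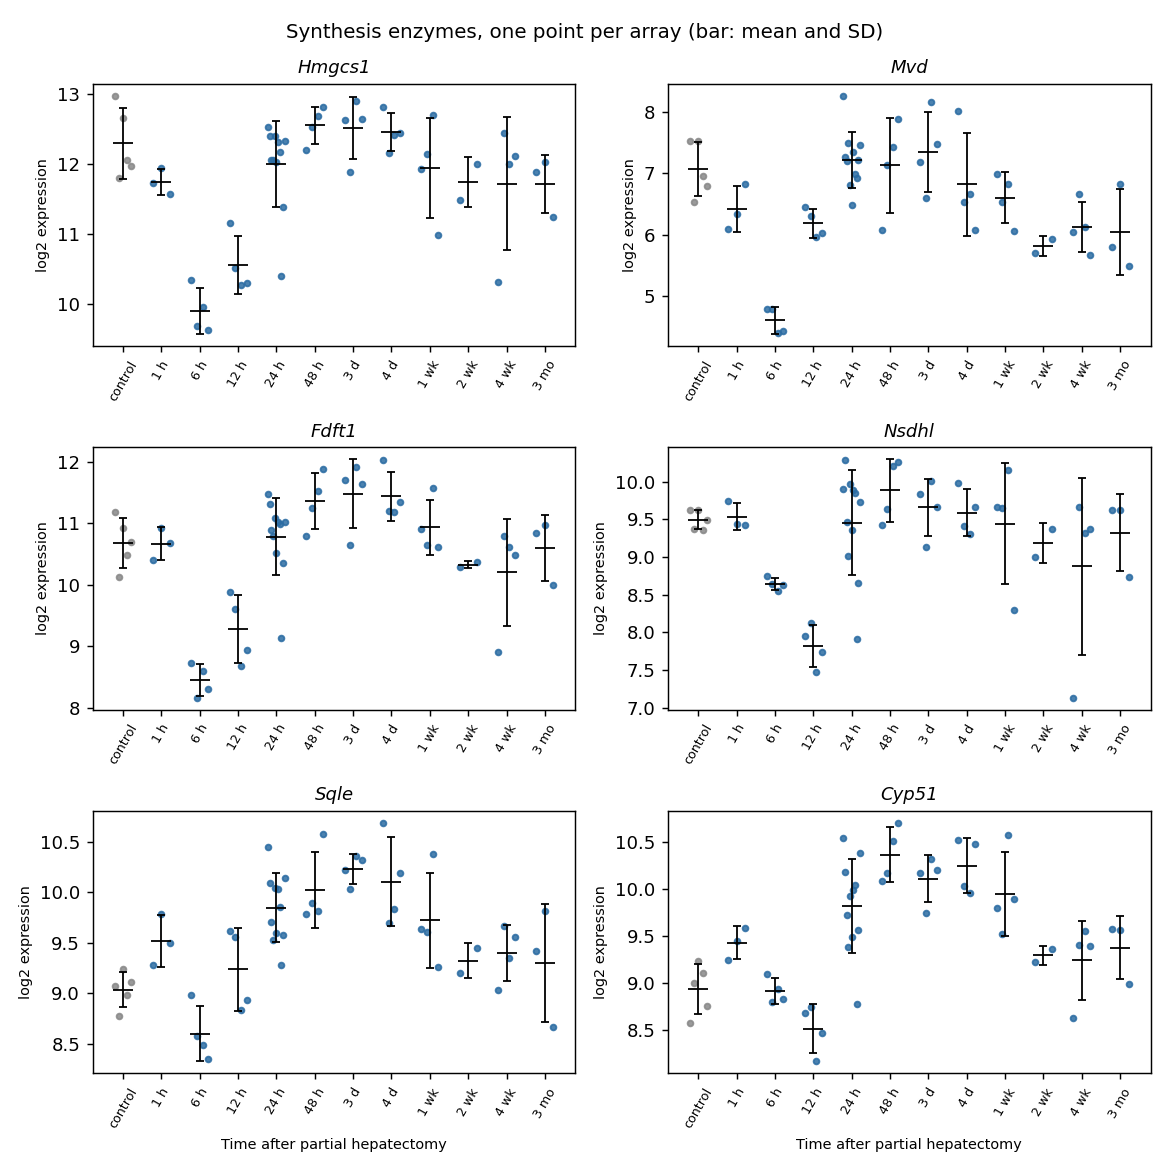
Log2 expression (vertical axes, each with its own range) of 6 synthesis enzymes in each array (points; grey control, blue operated) by time after partial hepatectomy (horizontal axis), with the mean and SD of each group as black bars. Hmgcs1, Mvd and Fdft1 are lowest at 6 hours, Nsdhl and Cyp51 at 12 hours, and Sqle and Cyp51 are above control from 24 hours to 1 week.

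All 4 sterol-sensing genes passed the test at 12 hours, and the Insig pair moved in opposite directions. Insig1 and Insig2 encode endoplasmic reticulum proteins that bind Scap; Insig1 is itself a target of SREBP, and the liver makes an Insig2 transcript that insulin lowers. Insig1 had 11.57, 10.47, 11.32, 11.01 and 11.07 in the control arrays and 8.47, 8.09, 8.24 and 7.98 at 6 hours. This change of -2.89 ± 0.38 (adjusted p = 1e-07), a level 7.43-fold lower, was the steepest fall of any of the 28 genes at any time. Insig1 was then 9.80, 9.51, 8.75 and 8.34 at 12 hours (-1.99 ± 0.38, adjusted p = 5.7e-05).

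Insig2 had 9.53, 9.98, 9.75, 10.13 and 8.42 in the control arrays and 11.87, 11.91, 11.97 and 11.70 at 6 hours. The 6-hour arrays lie close together and above every control, and the change was 2.30 ± 0.39 (adjusted p = 1.1e-05), or 4.93-fold higher. It stayed up at 12 hours, with 10.12, 10.83, 11.77 and 11.57 (1.51 ± 0.39, adjusted p = 0.0021), and at 24 hours, with 10.45 as the lowest, 10.80 as the median and 12.08 as the highest of 11 arrays (1.41 ± 0.31, adjusted p = 0.00042). The level of Insig2 was back in the control range at 48 hours, at 9.73, 9.48, 9.54 and 9.84, and had dropped by 1.33 ± 0.34 from 24 hours (adjusted p = 0.01; 0.0506 without 48-hour replicate 2).

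At 1 week Insig2 was called higher again (1.19 ± 0.39, adjusted p = 0.013; up to 0.129 without 1-week replicate 4 or control replicate 5), a call that also ended when its probe sets were averaged (0.0652).

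The mean of Insig1 was below control at each of the 11 times, and Insig1 passed the test at 24 hours (-1.13 ± 0.30, adjusted p = 0.0034), at 1 week (-0.98 ± 0.38, adjusted p = 0.036) and at 3 months (-1.33 ± 0.41, adjusted p = 0.012) as well. The 3-month arrays read 9.75, 10.05 and 9.48, all below the lowest control of 10.47. The 1-week call ended without any of 5 arrays, 1-week replicates 3 and 4 and control replicates 1, 3 and 5 (adjusted p up to 0.139), and the 3-month call ended without 3-month replicate 3 (0.0581).

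Srebf2 itself fell less, by 0.64 ± 0.20 at 6 hours (adjusted p = 0.014; 0.0652 without 6-hour replicate 1) and by 0.74 ± 0.20 at 12 hours (adjusted p = 0.0038). It read 6.85, 6.41, 6.78, 6.42 and 6.51 in the control arrays and 5.82, 6.00, 5.87 and 5.74 at 12 hours, with no overlap. A second probe set of Srebf2 passed at neither time (-0.43 ± 0.26 and 0.30 ± 0.26), and with both sets averaged the calls ended (adjusted p = 0.0514 at 6 hours and 0.448 at 12 hours). Scap was lower at 12 hours, at 8.29, 8.27, 8.44 and 8.47 against 8.83 to 9.22 (-0.64 ± 0.22, adjusted p = 0.021), a call that ended without 12-hour replicate 2 or control replicate 3 (up to 0.0577). At 1 week Scap was higher, at 9.53, 9.88, 9.78 and 9.62 (0.69 ± 0.22, adjusted p = 0.01; 0.405 with its probe sets averaged).

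**Figure D3:**
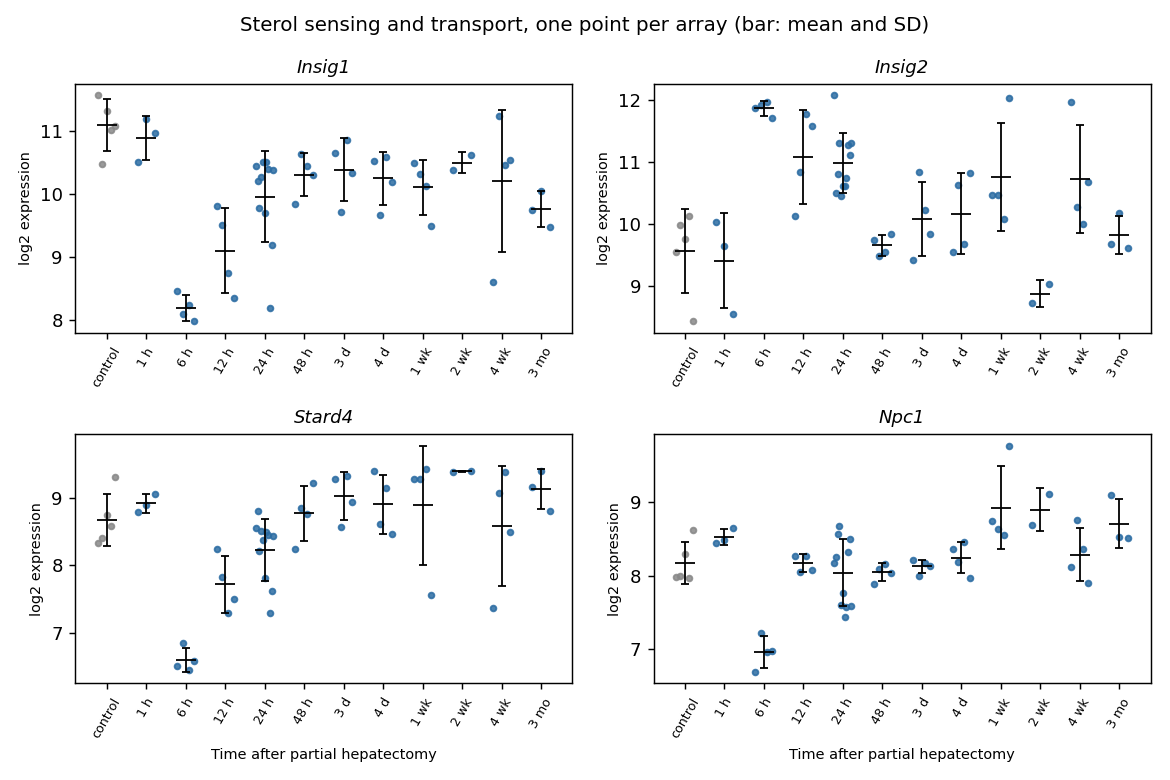
Log2 expression (vertical axes, each with its own range) of Insig1, Insig2, Stard4 and Npc1 in each array (points; grey control, blue operated) by time after partial hepatectomy (horizontal axis), with group mean and SD as black bars. At 6 hours Insig1, Stard4 and Npc1 are at their lowest means and Insig2 is at its highest.

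Both genes of intracellular handling fell at 6 hours. Stard4, a soluble carrier that moves cholesterol between membranes, went from 8.33, 8.41, 8.75, 8.58 and 9.31 to 6.51, 6.85, 6.46 and 6.59. The change of -2.07 ± 0.32 (adjusted p = 2.3e-06) is 4.20-fold, and no arrays overlap. At 12 hours Stard4 was still lower than control (-0.95 ± 0.32, adjusted p = 0.018), a call that ended without 12-hour replicate 3 or 4 or control replicate 5 (up to 0.0767) and with its probe sets averaged (0.288). From 6 to 12 hours it had risen by 1.12 ± 0.33 (adjusted p = 0.024), a call that ended without any of 4 arrays, replicates 1 and 2 at 12 hours and replicates 1 and 3 at 6 hours (up to 0.106).

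Npc1, which exports cholesterol from lysosomes, had 7.98, 8.00, 8.30, 7.97 and 8.63 in the control arrays, 6.69, 7.22, 6.96 and 6.98 at 6 hours and 8.28, 8.05, 8.27 and 8.07 at 12 hours. The fall at 6 hours was -1.21 ± 0.22 (adjusted p = 3.7e-05), and the rise from 6 to 12 hours of 1.20 ± 0.23 (adjusted p = 0.00027) brought it to -0.01 ± 0.22 from control. Npc1 was called lower at 6 hours and not at 1, 12 or 24 hours. At 1 week it was higher, by 0.75 ± 0.22 (adjusted p = 0.0062; 0.0908 without 1-week replicate 4).

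The 4 genes of uptake and export did not move as a block. Abca1, which loads cholesterol onto apolipoprotein A-I, had 9.69, 10.08, 10.05, 10.31 and 9.85 in the control arrays and 11.93, 11.56, 11.65 and 11.85 at 6 hours. It rose by 1.75 ± 0.21 (adjusted p = 3.4e-08), or 3.36-fold, and was still up at 12 hours, at 10.69, 10.83, 11.32 and 11.33 (1.05 ± 0.21, adjusted p = 0.00018). By 24 hours its median was 10.34, and it had dropped by 0.71 ± 0.19 from 12 hours (adjusted p = 0.0095; up to 0.0684 without 12-hour replicate 3 or 4).

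Macrophages also use Abca1 and Npc1. Of 8 Kupffer cell markers 5 were called higher at 1 hour, 3 at 6 hours, 3 at 12 hours and 6 at 48 hours. Of all genes 11.4% rose at 6 hours, 17.9% at 12 hours and 17.4% at 48 hours. All 8 were called higher at 24 hours, 3 days, 4 days and 1 week, where 18.8% to 21.8% of all genes rose. At 2 weeks and 3 months all 8 were called higher too, and 7 were at 4 weeks. Their median change was 0.80 at 6 hours and 1.97 to 2.47 where all 8 were called. Of 4 neutrophil markers 2 were called higher at 6 hours, where 11.4% of all genes rose. The same count of neutrophil markers was called higher at 12 hours, 24 hours, 3 days, 4 days and 1 week, where 17.9% to 21.8% of all genes rose. At 48 hours 1 was called lower, and at 3 months 1 was called higher. The summed linear signal of the Kupffer cell markers was 155 to 338 over the control arrays, where 6 of the 8 were near background, 430 to 544 at 6 hours, 676 to 1414 at 3 days and 1028 to 3483 at 1 week. That of the neutrophil markers was 55.5 to 64.0 in the control arrays, with all 4 near background, and 181 to 366 at 6 hours. Their part in the changes of Abca1 and Npc1, and in the later rises of the enzymes, was not tested.

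Scarb1, the receptor for high-density lipoprotein, rose at 6 hours to 10.28, 10.10, 9.83 and 9.94 from 9.18, 9.29, 9.47, 9.28 and 9.17 (0.76 ± 0.19, adjusted p = 0.0016). It was back at 9.09 to 9.19 at 12 hours, and had dropped by 0.88 ± 0.20 from 6 hours (adjusted p = 0.0017). At 24 hours it was again above control, by 0.46 ± 0.15 (adjusted p = 0.014).

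Abcg5 and Abcg8 encode both subunits of the sterol transporter into bile, and Abcg8 but not Abcg5 was called in the first days. Abcg8 had 7.29, 6.90, 7.31, 6.99 and 7.39 in the control arrays and 6.44, 6.42, 6.38 and 6.29 at 6 hours. It passed as lower at 6 successive times from 6 hours to 4 days, with changes from -0.58 ± 0.20 at 48 hours (adjusted p = 0.022) to -1.03 ± 0.20 at 12 hours (adjusted p = 7.2e-05). The 48-hour call ended without any of 5 arrays (up to 0.0743), and the 4-day call without 4-day replicate 2 (0.0785).

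Abcg5 had 8.48, 7.63, 8.06, 7.62 and 8.04 in the control arrays and 8.16, 8.03, 7.90 and 7.92 at 6 hours, a change of 0.04 ± 0.30 (adjusted p = 0.958). Its changes at the other 5 of those times lay between -0.54 and 0.52, none past the test. At 1 week Abcg5 rose to 9.54, 9.72, 9.11 and 8.08 (1.15 ± 0.30, adjusted p = 0.0027) and Abcg8 read 7.77, 8.15, 7.32 and 6.74 (0.32 ± 0.20, adjusted p = 0.208). Whether the partners differ from each other was not tested, and each has 1 probe set.

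**Figure D4:**
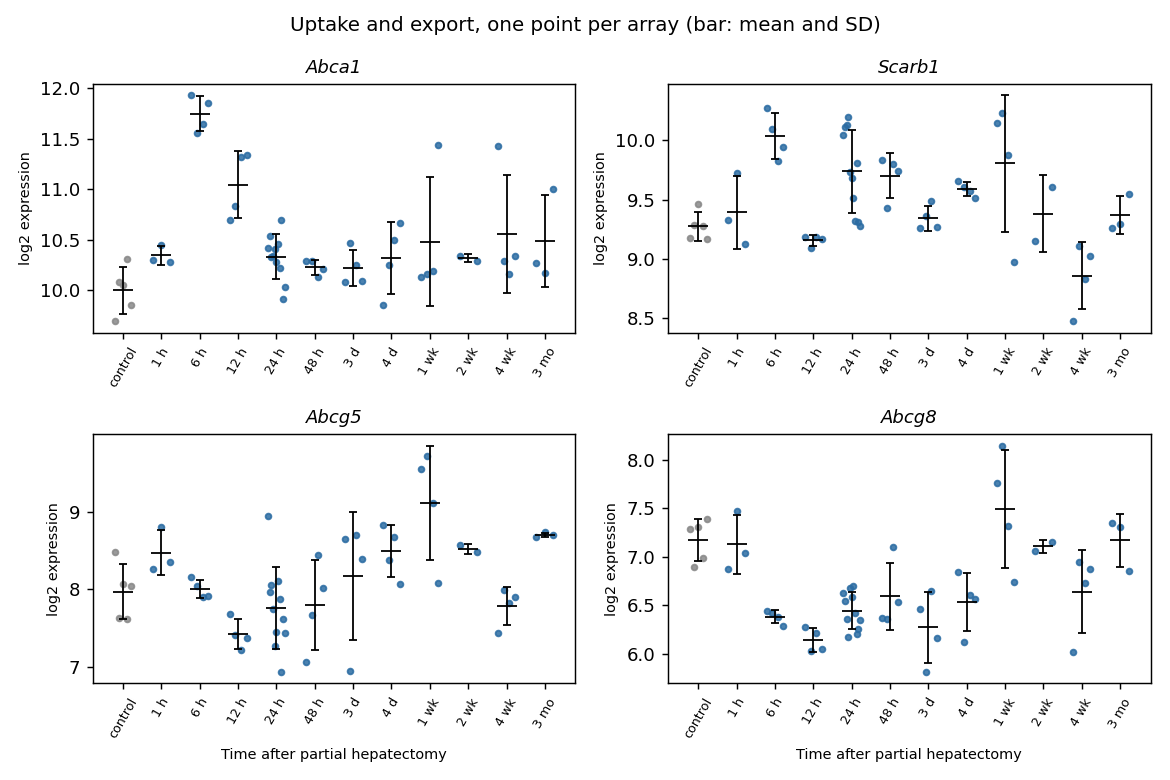
Log2 expression (vertical axes, each with its own range) of Abca1, Scarb1, Abcg5 and Abcg8 in each array (points; grey control, blue operated) by time after partial hepatectomy (horizontal axis), with group mean and SD as black bars. Abca1 peaks at 6 hours, Abcg8 lies below the control mean from 6 hours to 4 days, and the highest mean of Abcg5 is at 1 week.

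Between 1 and 6 hours 14 of the 28 changed (10.9% of all genes), 11 lower and 3 higher, where 6.44% of all genes were lower and 4.45% higher. Sqle and Mvk, not called against control at 6 hours, were among the 11 lower. Sqle changed by -0.92 ± 0.26 (adjusted p = 0.013, and 0.0988 without 1-hour replicate 2). Mvk changed by -0.98 ± 0.31 (adjusted p = 0.032, and up to 0.132 with 1 array left out). The Mvk call also ended when its probe sets were averaged (0.121). Between 6 and 12 hours 6 of the 28 changed, 3 in each direction (9.38% of all genes changed); Mvd, Npc1 and Stard4 were those that rose. Between 12 and 24 hours 11 rose and only Abca1 fell, where 5.13% of all genes rose and 4.58% fell. Nsdhl rose by 1.64 ± 0.32 (adjusted p = 0.00057), Fdft1 by 1.50 ± 0.30 (adjusted p = 0.00069), Hmgcs1 by 1.44 ± 0.30 (adjusted p = 0.001), Cyp51 by 1.31 ± 0.20 (adjusted p = 3.3e-05) and Fdps by 1.30 ± 0.28 (adjusted p = 0.0015). Mvk, Mvd, Lss, Srebf2, Sqle and Scarb1 rose by 0.58 to 1.05. The mean hybridization control was 10.32 at both times. Without 12-hour replicate 4 the count of 12 was 7, and without 24-hour replicate 9, whose enzyme median was -0.89 from control and the lowest of the 11 arrays, it was 17. Leaving out the 3 arrays with Xist signal also gave 17. Between 24 and 48 hours 3 of the 28 changed (5.47% of all genes): Ebp and Scap rose, by 0.62 ± 0.16 (adjusted p = 0.015) and 0.65 ± 0.19 (adjusted p = 0.031), where 3.57% of all genes rose, and Insig2 fell, where 1.9% did. That count was 1 without 48-hour replicate 3 or 4 and 5 without 24-hour replicate 1 or 2.

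At 24 hours Cyp51 and Sqle were the only enzymes called higher than control. Cyp51 had 8.78 as its lowest, 9.93 as its median and 10.55 as its highest value over 11 arrays, against 8.94 ± 0.26 in the control arrays (0.89 ± 0.19, adjusted p = 0.00031; 0.0742 with its probe sets averaged). Sqle had 9.28, 9.85 and 10.45 in the same order, all above the highest control of 9.24 (0.81 ± 0.18, adjusted p = 0.00057). Tm7sf2 was called lower at this time alone, with a median of 9.46 against 9.75 to 10.27 in the control arrays (-0.66 ± 0.19, adjusted p = 0.0064).

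From 48 hours to 4 days the rises spread over both stretches of the route. Cyp51 was at 10.09, 10.17, 10.52 and 10.71 at 48 hours, above every control, by 1.43 ± 0.23 (adjusted p = 1.1e-05), or 2.70-fold. Sqle reached 10.22, 10.03, 10.36 and 10.32 at 3 days (1.20 ± 0.23, adjusted p = 5.6e-05). Msmo1, which had fallen at 6 hours, reached 12.16, 11.38, 11.94 and 11.62 at 3 days, above its highest control of 10.73 (1.29 ± 0.33, adjusted p = 0.002).

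Pmvk, the enzyme that had been high at 6 hours, was high again at 3 days (1.23 ± 0.35, adjusted p = 0.0042). At 4 days it read 9.16, 8.90, 8.60 and 9.20 (1.31 ± 0.35, adjusted p = 0.0032). Ebp passed at 48 hours, 3 days, 4 days and 1 week, with 11.85, 11.19, 12.04 and 11.86 at 3 days against 10.27 to 10.99 (1.01 ± 0.19, adjusted p = 4.4e-05). Lss, Mvk and Idi1 were each called at 48 hours, 3 days and 4 days, at 0.80 to 1.14 above control, Fdps at 3 and 4 days by 1.04 and 1.05, Hsd17b7 at 48 hours and 3 days by 0.89 and 0.92, and Ggps1 at 3 days and 1 week by 0.84 and 0.86. The calls of Idi1, Lss and Hsd17b7 all ended without 48-hour replicate 3 or 4 at 48 hours and without 3-day replicate 3 at 3 days (adjusted p up to 0.16). With the probe sets of each gene averaged, the calls of Idi1 and Msmo1 ended at 48 hours, 3 days and 4 days (adjusted p from 0.104 to 0.649) and those of Ggps1 at 3 days and 1 week (0.211 and 0.0862). The count of 9 at 48 hours was 4 without 48-hour replicate 4, and the counts of 10 were 6 at 4 days without 4-day replicate 1 or 4 and 6 at 1 week without 1-week replicate 3.

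Of the enzymes that fell early, Hmgcs1, Fdft1, Mvd, Nsdhl, Sc5d and Dhcr7 passed as higher at no time. Sc5d was 0.67 ± 0.38 above control at 4 days (adjusted p = 0.174). Hmgcs1 stood at 12.20, 12.52, 12.68 and 12.80 at 48 hours, within its control range (0.26 ± 0.34, adjusted p = 0.588), and Fdft1 was 0.80 ± 0.34 above control at 3 days (adjusted p = 0.0592). Between 48 hours and 4 days, and between 4 days and 1 week, 0 of the 28 passed, with 1 and 3 at an unadjusted p under 0.05; 0.995% and 0.022% of all genes passed.

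The hybridization controls, a technical measure, were lower in all operated groups than in the control arrays. This difference cannot be told apart from the operation. The mean of these controls was 10.85 in the control arrays, 10.38 at 48 hours, 9.73 at 3 days, 9.86 at 4 days and 9.85 at 1 week. At 2 weeks and 3 months it was 9.89 and 9.85, and the enzymes' median change was 0.04 and 0.23. With them as a covariate 3 of the 28 passed at 48 hours, Cyp51 (1.30 ± 0.26, adjusted p = 0.000792) and Sqle (0.83 ± 0.25, adjusted p = 0.025) as higher and Abcg8 (-0.69 ± 0.22, adjusted p = 0.0365) as lower, where 11.8% of all genes did. At 3 days, 4 days and 1 week 0 of the 28 passed, with 4, 5 and 7 at an unadjusted p under 0.05, where 1.03%, 0.665% and 0.775% of all genes passed. The called genes then kept a median of 41.3%, 46.2% and 50.3% of their change at those 3 times, and the SE grew 1.59, 1.48 and 1.49 times.

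The covariate moved the median change of the 28 genes down at each time against control. It went from -0.56 to -0.82 at 6 hours, from 0.43 to 0.002 at 3 days and from 0.09 to -0.53 at 2 weeks. The called genes, 12 of 16 of them falls at 6 hours and 12 of 14 at 12 hours, kept a median of 115% and 118% of their change. Because of the downward shift, these shares cannot be set against those of the later rises. With the covariate 14 of the 28 passed at 6 hours and 17 at 12 hours, where 18% and 20.1% of all genes did; Pmvk (0.63 ± 0.40, adjusted p = 0.32) and Scarb1 (0.59 ± 0.22, adjusted p = 0.0587) were the 2 calls lost at 6 hours. Insig1 changed by -3.14 ± 0.46 (adjusted p = 1.94e-06), Hmgcs1 by -2.57 ± 0.42 (adjusted p = 1.37e-05) and Insig2 by 2.42 ± 0.47 (adjusted p = 0.000178) at 6 hours. At 24 hours 7 of the 28 passed with it, where 13.3% of all genes did, 5 of them among the 7 called without it. The calls of Sqle (0.64 ± 0.23, adjusted p = 0.0517) and Scarb1 (0.31 ± 0.18, adjusted p = 0.289) were lost, and Sc5d and Stard4 passed as lower. At 1 hour 0 passed, with 2 at an unadjusted p under 0.05, where 0.0879% did.

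**Figure D5:**
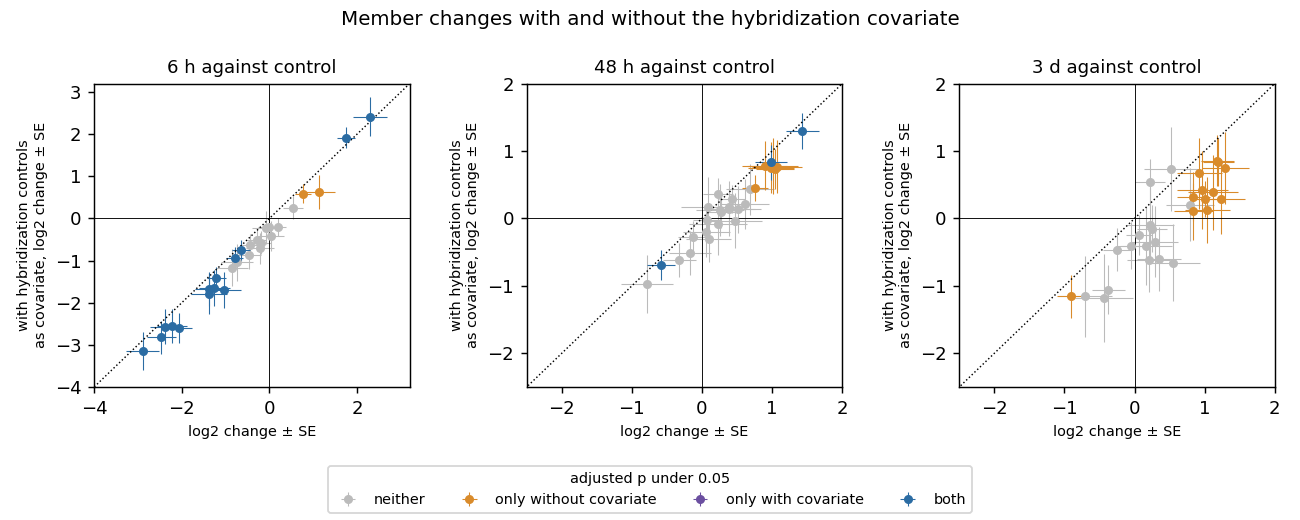
Log2 change from control ± SE of the 28 genes without (horizontal axes) and with (vertical axes) the hybridization controls as a covariate, at 6 hours, 48 hours and 3 days, with the dotted line where both are equal and colours for which fit passed an adjusted p under 0.05. At 6 hours 14 of 16 calls remain, at 48 hours 3 of 9, and at 3 days 0 of 12.

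At 2 weeks 0 of the 28 passed against control, as at 1 hour, with 2 and 1 at an unadjusted p under 0.05 and 2 and 3 arrays; 3.41% and 5.04% of all genes passed. Mvd read 5.70 and 5.93 at 2 weeks (-1.25 ± 0.41, adjusted p = 0.0813). At 4 weeks 3 passed, where 14.7% of all genes did: Mvd lower (-0.94 ± 0.33, adjusted p = 0.048), Srebf2 lower (-0.67 ± 0.20, adjusted p = 0.018; 0.207 with its probe sets averaged) and Insig2 higher (1.16 ± 0.39, adjusted p = 0.034). Without 4-week replicate 1, or without control replicate 1, 0 of the 28 passed; the count was 1 without 4-week replicate 4 or control replicate 5 and 5 without 4-week replicate 2. For Insig2 1 of the 4-week arrays, not replicate 2, read 11.97 where the other 3 had 10.00 to 10.68.

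At 3 months 3 passed, where 30.1% of all genes did: Insig1 and Mvd were lower, Mvd at 5.80, 6.83 and 5.49 (-1.03 ± 0.36, adjusted p = 0.027), and Ebp was higher by 0.53 ± 0.20 (adjusted p = 0.045). The count of 3 was 1 without 3-month replicate 1 or 3 or control replicate 1 or 3. Between 1 and 4 weeks Abcg5 (-1.33 ± 0.32, adjusted p = 0.019), Scarb1 (-0.95 ± 0.20, adjusted p = 0.0083), Abcg8 (-0.85 ± 0.21, adjusted p = 0.022) and Scap (-0.83 ± 0.23, adjusted p = 0.039; 0.113 with its probe sets averaged) fell, where 2.28% of all genes fell and 3.15% changed. The count of 4 was 1 without 1-week replicate 2 and 2 without 4-week replicate 1 or 4.

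The enzymes shared much of their time course. Over the 12 group means, the correlation of an enzyme with the median of the other 17 ran from 0.95 for Idi1, 0.93 for Mvk and 0.92 for Fdft1 down to 0.45 for Pmvk, 0.26 for Ggps1 and 0.09 for Tm7sf2. Of the other genes Stard4 (0.73), Srebf2 (0.71) and Scap (0.70) were most like the enzymes, and Insig2 (-0.46) and Abca1 (-0.72) least. All groups share the same control and arrays, so these values describe the profiles and carry no test.

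Promoter windows of RefSeq (GRCm38.p6, 250 bases before to 50 after each start) were at hand for 22 of the 28 genes, and were searched on both strands for letters known from SREBP-regulated promoters. The sterol regulatory element was searched as TCACNCCAC, the NF-Y box as CCAAT, the Sp1 box as GGGCGG, and the E-box as CACGTG. The direct repeat bound by LXR was searched too. Windows of 4 genes are shown, that of Hmgcs1 because it alone holds the exact sterol regulatory element, those of Mvd, Insig1 and Insig2 because, with Hmgcs1, their levels moved furthest at 6 hours, a choice made after the values were seen. For Insig2 the most upstream of 3 windows is shown. Capitals mark matches to these letters or their reverse complement.
Hmgcs1, chr13:119690101-119690400, + strand: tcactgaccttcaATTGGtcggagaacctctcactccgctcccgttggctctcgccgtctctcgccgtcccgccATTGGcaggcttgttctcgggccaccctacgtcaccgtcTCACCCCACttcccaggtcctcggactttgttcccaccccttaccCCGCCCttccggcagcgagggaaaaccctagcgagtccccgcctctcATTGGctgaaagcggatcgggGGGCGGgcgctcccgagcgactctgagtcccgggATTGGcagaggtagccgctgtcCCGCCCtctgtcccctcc
Mvd, chr8:122443373-122443672, - strand: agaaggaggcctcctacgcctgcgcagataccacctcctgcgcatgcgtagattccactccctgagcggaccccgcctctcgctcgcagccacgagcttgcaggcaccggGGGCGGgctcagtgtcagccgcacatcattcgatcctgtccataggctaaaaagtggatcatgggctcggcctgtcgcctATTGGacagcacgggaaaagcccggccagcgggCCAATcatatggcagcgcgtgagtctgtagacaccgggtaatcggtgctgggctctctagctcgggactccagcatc
Insig1, chr5:28071162-28071461, + strand: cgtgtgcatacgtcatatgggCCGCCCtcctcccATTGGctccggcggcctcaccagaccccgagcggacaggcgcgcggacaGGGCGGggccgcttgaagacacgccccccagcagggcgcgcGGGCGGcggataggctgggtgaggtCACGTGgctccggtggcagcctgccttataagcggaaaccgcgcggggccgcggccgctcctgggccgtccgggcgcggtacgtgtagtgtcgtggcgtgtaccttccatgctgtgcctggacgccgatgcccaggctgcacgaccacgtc
Insig2, chr1:121332540-121332839, - strand: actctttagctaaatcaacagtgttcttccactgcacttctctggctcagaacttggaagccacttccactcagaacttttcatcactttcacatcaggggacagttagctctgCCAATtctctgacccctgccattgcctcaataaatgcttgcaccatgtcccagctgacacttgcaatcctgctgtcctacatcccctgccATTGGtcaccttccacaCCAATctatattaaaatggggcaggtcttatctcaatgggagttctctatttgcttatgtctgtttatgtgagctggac

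In the Hmgcs1 window the sterol regulatory element TCACCCCAC starts at position -137 from the gene's start, and the window also has 4 NF-Y boxes and 3 Sp1 boxes over both strands. The NF-Y box was in windows of 20 of the 22 genes and of all 15 synthesis enzymes with a window, where 41.1% of all genes have it. The Sp1 box was in 18 of the 22, where 38.2% of all genes have it, and the E-box in 6 (Abca1, Dhcr7, Hsd17b7, Insig1, Sc5d and Scap), where 8.09% do. The exact sterol regulatory element was in 1 of 22, where 1.44% of all genes have it, and with up to 1 mismatch in 9 of 22, where 26.7% do. The direct repeat was in none of the 22. Of 32851 windows of the same length 37.4% hold the NF-Y box, 35.7% the Sp1 box, 7.15% the E-box and 1.24% the exact sterol regulatory element. A match is a description of these letters and not a measured site.

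Other genes around cholesterol, from lists chosen by pathway, gave a mixed picture. Of 9 measured genes of SREBP processing and sterol sensing, 3 fell and 1 rose at 6 hours (10.5% and 11.4% of all genes), and 5 rose and none fell at 4 days (18.8% and 14.1%). Srebf1, which encodes SREBP-1, fell by 3.02 ± 0.51 at 6 hours (adjusted p = 1.4e-05), Erlin1, which binds the SREBP complex, fell by 0.73 ± 0.14 at 6 hours and was 0.75 ± 0.14 higher at 4 days, and Tmem97, a sterol-regulated membrane protein, was 1.12 ± 0.21 higher at 3 days. Of 10 fatty acid synthesis genes 7 fell at 24 hours, where 12.8% of all genes fell, and none was called higher than control at any time; Mlxipl, which encodes ChREBP, fell by 2.63 ± 0.35 at 12 hours, and Gpam, the first enzyme of glycerolipid synthesis, by 1.43 ± 0.24 at 6 hours. Of 5 acetyl-CoA supply genes 3 fell at 12 hours, where 12% of all genes did; Acss2, which makes acetyl-CoA from acetate, fell by 3.77 ± 0.63 (adjusted p = 9.1e-06), and Me1, the malic enzyme, by 1.30 ± 0.30 at 48 hours.

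A further list held 8 genes of cholesterol breakdown to bile acids and of export into bile, the latter Abcb11 and Abcb4. Of these 8, 2 fell at 6 hours, 4 at 12 hours and 5 at 24 hours, where 10.5%, 12% and 12.8% of all genes fell. Of the 8, 1 rose at 24 hours, Abcb4, the phospholipid exporter into bile, by 0.53 ± 0.17 (adjusted p = 0.015), named after its value was seen. Cyp7a1, which starts the classic bile acid route, went from 9.97 to 3.87 at 6 hours (-6.10 ± 1.04, adjusted p = 1.5e-05), which is near background, and Cyp27a1, which starts the alternative route, fell by 0.74 ± 0.20 at 24 hours. Of 11 genes of lysosomal and intracellular sterol transport 4 fell at 6 hours, where 10.5% of all genes did; Stard5, a relative of Stard4, fell by 1.82 ± 0.20 (adjusted p = 5.1e-09), and Lamp2 by 0.50 ± 0.10 at 24 hours.

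Of 6 measured LXR receptors and targets 1 rose and 2 fell at 6 hours, where 11.4% and 10.5% of all genes did; Pltp, the phospholipid transfer protein, fell by 1.24 ± 0.33 at 6 hours and Nr1h3, which encodes LXR-alpha, rose by 0.57 ± 0.14 at 24 hours. Of 9 genes of the isoprenoid branches 6 rose at 12 hours, where 17.9% of all genes did, and none was called lower than control at any time, though 1 fell between 12 and 24 hours; Coq2, a ubiquinone enzyme, was called at 10 of 11 times, by 0.90 ± 0.12 at 3 days, and Pdss2, which makes its side chain, by 1.03 ± 0.16. Of 8 lipoprotein genes Apom, an apolipoprotein of high-density lipoprotein, rose at all 11 times, by 2.05 ± 0.24 at 3 days, and Lrp1, a remnant receptor, fell by 0.71 ± 0.19 at 12 hours. All 7 cell cycle genes rose at 48 hours, where 17.4% of all genes did, with Cdk1 up by 4.83 ± 0.65 and Mki67 by 5.83 ± 0.76.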

How the data were processed

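Expression was read from liver RNA on Affymetrix Mouse Genome 430 2.0 arrays, per the labels' protocols. The authors deposited log2 expression of 45101 probe sets on 52 arrays; the submitters' processing notes name oligo 1.52.0 and RMA. The sources used here do not state if RMA ran on all arrays at once. The number of arrays limits the precision. Of the probe sets, 34945 were annotated to 1 gene, 932 to several and 9211 to none by the platform table, and 18032 of 18194 genes matched RefSeq by Entrez identifier. Each gene took its probe set with the highest mean. Group means were fitted over all 52 arrays with limma 3.58.1 in R 4.3.3 (lmFit, eBayes), giving 11 contrasts with control and 6 between times; the contrast of 12 with 6 hours and 5 contrasts in the closing section were added after values were seen. Every listed gene with a probe set is named, and from each other list at most 2 genes with the smallest F p-value, with Cyp7a1 and Srebf1 by name. The members and lists were chosen with earlier results of these data known. On simulated arrays of 18194 genes, the 6-hour contrast found 91% of 100 genes changed 2-fold and 98% of 100 changed 4-fold, the 24-hour contrast 90% and 99%, and the 4-day contrast 85% and 99%. Among the unchanged genes these contrasts called 11, 6 and 9. The simulated noise was normal and independent between genes, with few genes changed and no arrays standing apart, so these rates need not hold for the deposited arrays. No 2 arrays held identical values (highest correlation 0.996). Cell type markers were Alb, Ttr and others for hepatocytes, and lists for Kupffer cells, monocytes, endothelium, stellate cells, cholangiocytes, neutrophils, T cells and B cells; all 3 T cell, all 3 B cell and all 5 cholangiocyte markers measured were near background in the control arrays, 2 of 5 monocyte, 2 of 6 endothelial and 1 of 7 stellate markers likewise. Replicate numbers were checked for pairing: over 224 same-numbered pairs of arrays the mean correlation of deviations was -0.01, 48 were over 0.1, and 4 of 46 arrays correlated best with their own number, so the numbers did not pair the samples.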

Additional observations from a re-analysis of the deposited data

Results flagged for a closer look

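In 20 of 224 sets of 4 to 10 arrays, 1 array stood apart from the others of its group by Dixon's criterion; chance alone flags about 5%. On 4-week replicate 1, Idi1 (9.97, others 11.38 to 11.52), Fdft1 (8.91, others 10.48 to 10.79), Nsdhl (7.13, others 9.32 to 9.67) and Sc5d (9.46, others 11.36 to 11.64) were low and Abca1 (11.43, others 10.16 to 10.34) was high. On 1-week replicate 4, Tm7sf2 (8.52, others 10.34 to 10.67) and Stard4 (7.57, others 9.27 to 9.43) were low and Abca1 (11.44, others 10.13 to 10.20) and Npc1 (9.77, others 8.56 to 8.74) were high. On 1-week replicate 3, Msmo1 (11.47) and Hsd17b7 (10.40) were high. On 3-day replicate 2, Mvk (7.18) and Srebf2 (6.07) were low, and on 3-day replicate 3 Scap (9.69) was high. On control replicate 1, Fdps (9.18) and Tm7sf2 (9.75) were low. The other values were Ggps1 on 4-week replicate 4 (6.20), Sqle on 48-hour replicate 4 (10.58), Sc5d on 48-hour replicate 1 (10.73, the low one), and Tm7sf2 on 4-day replicate 1 (10.43); the first, the second and the last were high. 

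Each of 5 genes was called lower at one time and higher at another, and the difference between those times was itself tested: Fdps was 2.03 higher at 4 days than at 12 hours (adjusted p = 6.05e-05, 15% of all genes called), Lss 2.39 higher at 4 days than at 6 hours (adjusted p = 6.38e-06, 22.3%), Msmo1 2.67 higher at 3 days than at 6 hours (adjusted p = 2.55e-07, 27.9%), Scap 1.33 higher at 1 week than at 12 hours (adjusted p = 0.00012, 12.8%) and Npc1 1.96 higher at 1 week than at 6 hours (adjusted p = 3.75e-08, 26.3%). These times were picked for their calls, so the tests are not independent of that choice.

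Outside the listed genes, Xist read 9.15, 9.48 and 9.12 on 24-hour replicates 9, 10 and 11, against 2.51 to 3.81 on the other 49 arrays, all labelled male.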

How the results depend on the processing

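The numbers below are counts of the 28 genes passing in each comparison. Most are not set beside the share of all genes passing under the same setting. A changed count is therefore not a result about the 28 alone. Leaving out 1 array at a time gave 13 to 15 (6 hours), 11 to 14 (12 hours), 7 to 9 (24 hours), 4 to 9 (48 hours), 9 to 14 (3 days), 6 to 10 (4 days), 6 to 11 (1 week), 0 to 5 (4 weeks), 1 to 3 (3 months) and 0 (1 hour and 2 weeks) against control; between times it gave 10 to 12 (6 against 1 hour), 4 to 7 (12 against 6 hours), 7 to 17 (24 against 12 hours), 1 to 5 (48 against 24 hours), 0 (4 days against 48 hours), 0 to 1 (1 week against 4 days) and 1 to 4 (4 weeks against 1 week), and 26 to 28 for the F test. With the hybridization controls as a covariate the counts were 3 at 48 hours, 0 at 3 days, 4 days, 1 week, 4 weeks and 3 months, 5 for 48 against 24 hours and 0 for 4 weeks against 1 week, and Ebp turned to -0.10 at 1 week and -0.12 at 3 months, without passing. Of all genes 1.23% passed with the covariate at 4 weeks and 0% at 3 months. The share was 7.44% for 48 against 24 hours and 0.236% for 4 weeks against 1 week. At an adjusted p under 0.01 the counts of the 28 were 4 at 48 hours, 4 days and 1 week, 0 at 4 weeks and 3 months, 9 for 6 against 1 hour, 7 for 24 against 12 hours, 0 for 48 against 24 hours and 1 for 4 weeks against 1 week. With at least a 2-fold change they were 9 (12 hours), 2 (24 hours), 4 (48 hours), 7 (3 days), 5 (4 days), 3 (1 week), 1 (4 weeks), 7 for 24 against 12 hours, and 1 each for 48 against 24 hours and 4 weeks against 1 week. With only the 2 groups in the fit they were 2 at 1 hour, 1 at 2 weeks, 23 for 6 against 1 hour, 18 for 12 against 6 hours, 1 for 48 against 24 hours and 0 for 4 weeks against 1 week. Quantile normalization gave 6 at 1 week, 1 at 2 weeks and 2 for 4 weeks against 1 week, and averaging the probe sets of each gene gave 5 at 3 months. Without the 7 arrays that stood apart they were 0 at 4 weeks, 19 for 24 against 12 hours and 1 for 1 week against 4 days. With the replicate number as a block, 7 of 476 single values lost their call and 11 gained one. Median centring moved 5 such calls, a trended and robust prior 1, and leaving out dim genes 7; no other setting reversed a called value. The causes were not tested. Values near background, as for Mvd at 6 hours, bound a fall and do not measure it.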
